A study of Homo sapiens with 22 samples.

Results

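Peak lists of 2 mutant forms of ARID1A were compared here, with the delIDR1 truncation on one side and DBDmut, a mutant of the ARID domain, on the other. ARID1A belongs to the canonical form of BAF, a SWI/SNF chromatin remodeller that spends ATP to slide and evict nucleosomes at enhancers and promoters. Its ARID domain binds DNA without strong preference for sequence, and long intrinsically disordered regions (IDRs) make up much of its amino-terminal part. SMARCA4 (BRG1) is the ATPase of the complex and SMARCC1 (BAF155) a core scaffold subunit that other SWI/SNF complexes also carry. H3K27ac, acetylation of lysine 27 of histone H3, marks active promoters and enhancers.

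The libraries were made by CUT&Tag, in which a transposase is guided by an antibody and cuts out DNA beside the bound protein or mark for sequencing. All were from AN3CA, an established human endometrial carcinoma line known to be deficient in ARID1A, with an empty vector (Empty) or with 1 introduced form of ARID1A: wild type (WT), the CBR truncation, DBDmut, delIDR1 or a hybrid with the IDR of DDX4. The members here were the SMARCA4, SMARCC1 and H3K27ac libraries of delIDR1 and DBDmut, 6 of the 22 libraries, and each of their peaks was then looked up in WT and Empty. Each form had 1 library per antibody and Empty had 2 replicates. A difference between delIDR1 and DBDmut therefore has no replicate check, and no p-value is given. How much protein each line made, and whether a line was a clone or a pool, is not given in the sources used here.

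On chromosomes 1 to 22 the delIDR1 lists held 7011 SMARCA4, 10273 SMARCC1 and 30991 H3K27ac peaks, and the DBDmut lists held 14849, 18427 and 38153. Together these were 119704 of the 509800 peaks on all sequences of the 22 lists. Names of the peaks began with the same stamp in delIDR1, DBDmut, WT and Empty replicate 1 and with another in Empty replicate 2. The labels do not say what the stamp stands for. Depth, estimated from the background behind each peak, was 1.02 fragments per kb for SMARCA4 in delIDR1 and 0.916 in DBDmut, 1.33 and 1.62 for SMARCC1, and 3.59 and 4.65 for H3K27ac. The delIDR1 SMARCA4 list was thus the shorter of the pair although its library was not the shallower. In WT the depths were 1.53, 3.28 and 4.48.

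To compare lists of the same length, the DBDmut list of each antibody was shortened to the length of the delIDR1 list by the authors' -log10 p-value (column 8 of the list). This left DBDmut peaks down to a -log10 p of 10.96 for SMARCA4, 11.005 for SMARCC1 and 7.59 for H3K27ac. The first peaks left out stood at 10.96, 11.005 and 7.59. The delIDR1 lists were used whole and went down to 5.22, 5.03 and 4.32. A peak was shared when it overlapped a peak of the other list by 1 bp or more, and was otherwise called delIDR1-only or DBDmut-only.

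Most H3K27ac peaks and somewhat over 50% of BAF subunit peaks were shared. For SMARCA4, 4038 of the 7011 delIDR1 peaks met a DBDmut peak (57.6%, Wilson 95% interval 56.4 to 58.7). The remaining 2973 (42.4%) were delIDR1-only, and 3011 DBDmut peaks (42.9%) were DBDmut-only. For SMARCC1, 6291 of 10273 delIDR1 peaks were shared (61.2%, 60.3 to 62.2), 3982 (38.8%) were delIDR1-only and 4084 (39.8%) were DBDmut-only. For H3K27ac, 22538 of 30991 were shared (72.7%, 72.2 to 73.2), 8453 (27.3%) were delIDR1-only and 8524 (27.5%) were DBDmut-only. Measured in bases, the overlap as a share of the union was 35.0% for SMARCA4, 37.8% for SMARCC1 and 51.2% for H3K27ac.

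The only replicate pair of the study gives a scale for these shares. With 5 libraries shortened to 1 length per antibody (5453, 10273 and 30991 peaks), delIDR1 and DBDmut overlapped in 60.1% of SMARCA4, 60.7% of SMARCC1 and 72.6% of H3K27ac peaks, as the mean of both directions. The Empty replicates overlapped in 56.5%, 69.0% and 68.3%. The share for the mutants was thus above that of the Empty replicates for SMARCA4 and H3K27ac and below it for SMARCC1. For H3K27ac the Empty mean joins unlike directions: 76.6% of the peaks of replicate 1 were found in replicate 2 and 60.1% the other way, against 72.7% and 72.5% between the mutants. The Empty replicates carried different stamps, and their H3K27ac libraries differed in depth, at 4.40 and 14.5 fragments per kb, and their part in this scale was not tested.

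**Figure D1:**
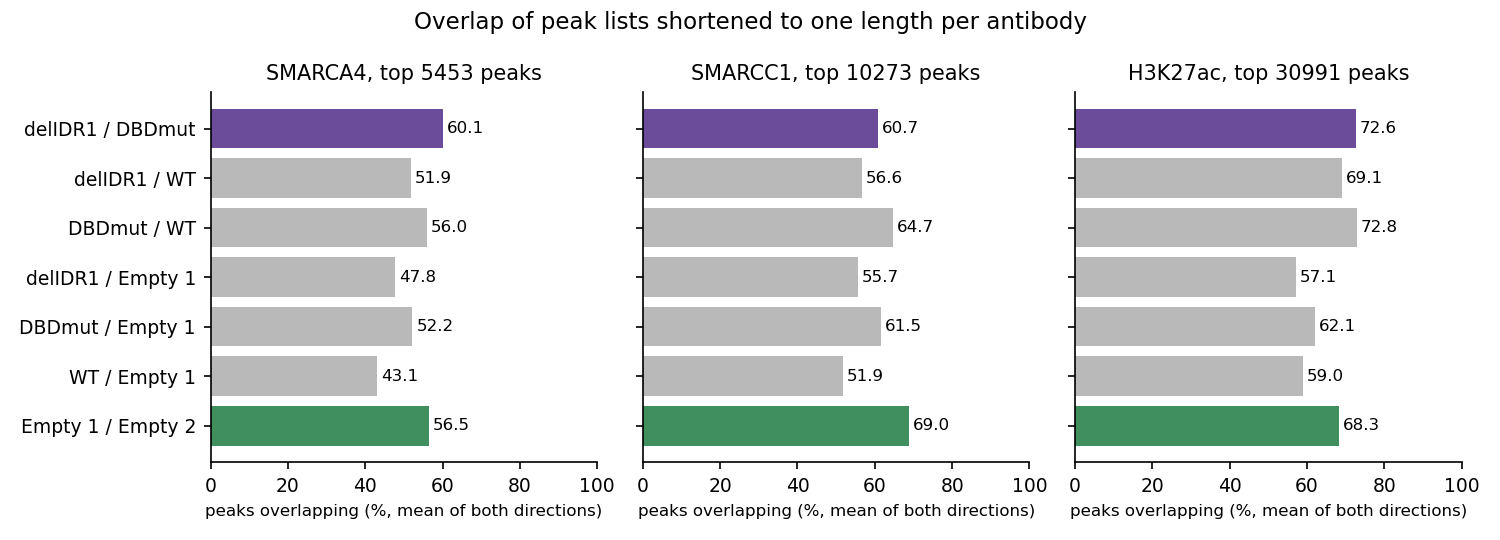
Share of peaks that overlapped between pairs of libraries (horizontal axis, percent, mean of both directions) for each antibody, with 5 libraries shortened to the same number of peaks. The delIDR1 and DBDmut pair is in purple and the Empty replicates are in green. The purple bar is longer than the green one for SMARCA4 and H3K27ac and shorter for SMARCC1, and DBDmut overlapped WT and Empty more than delIDR1 did.

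At that length DBDmut overlapped WT more than delIDR1 did, and it overlapped Empty more as well. With WT, the overlap was 56.0% for DBDmut and 51.9% for delIDR1 in SMARCA4, 64.7% and 56.6% in SMARCC1, and 72.8% and 69.1% in H3K27ac. With Empty replicate 1, it was 52.2% and 47.8%, 61.5% and 55.7%, and 62.1% and 57.1%. With Empty replicate 2, it was 55.0% and 49.95%, 60.8% and 56.7%, and 57.6% and 54.2%. In SMARCA4 each mutant overlapped the other more than it overlapped WT, which itself shared 43.1% with Empty replicate 1. In SMARCC1, DBDmut overlapped WT more than it overlapped delIDR1.

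Most of the strongest peaks were shared, and the share fell in each step of 20% of the list from the strongest to the weakest. In the strongest 20% of the delIDR1 lists, 94.1% of SMARCA4, 95.8% of SMARCC1 and 98.7% of H3K27ac peaks met a DBDmut peak. In the weakest 20%, 21.5%, 21.5% and 37.0% did. From the DBDmut side the shares ran from 91.5% to 31.3% for SMARCA4, from 94.4% to 32.0% for SMARCC1 and from 99.1% to 40.6% for H3K27ac. None of the 1000 strongest H3K27ac peaks of either list was construct-only. Among the 1000 strongest SMARCA4 peaks, 37 of delIDR1 and 47 of DBDmut were, and among the 1000 strongest SMARCC1 peaks 15 of each.

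**Figure D2:**
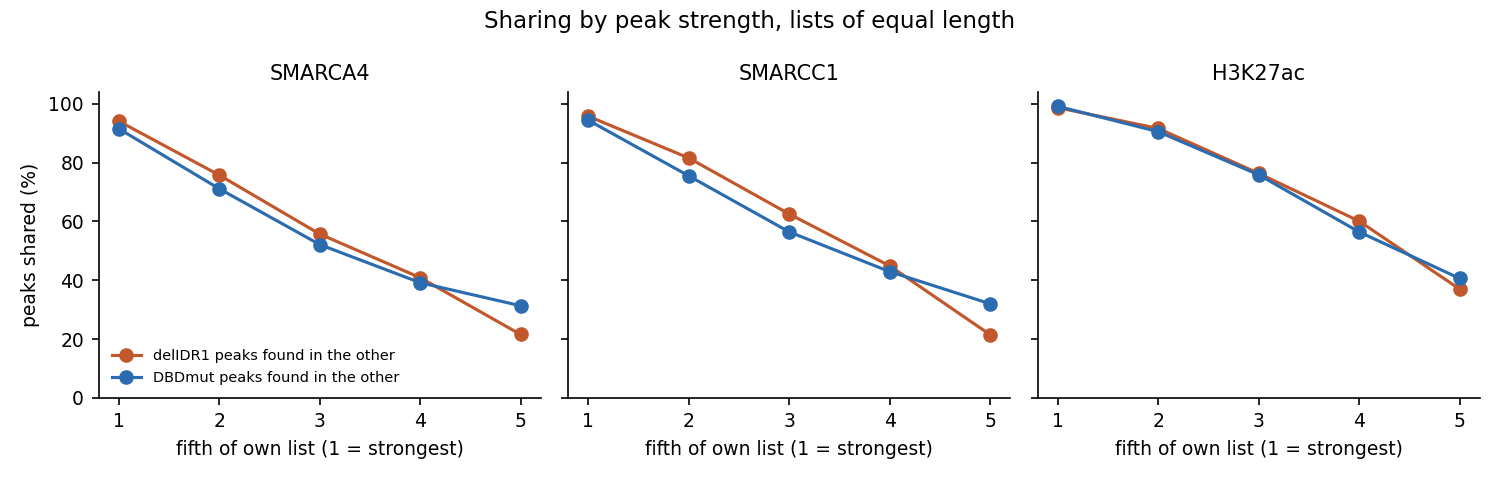
Share of peaks that met a peak of the other construct (vertical axis, percent) by step of 20% of the peak's own list (horizontal axis, 1 is the strongest), in lists of equal length. Both lines fall from at least 91.5% in the strongest step to between 21.5% and 40.6% in the weakest.

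Construct-only peaks were narrower and rested on fewer fragments. The median DBDmut-only SMARCA4 peak was 181 bp wide with 12 fragments over its summit, against 275 bp and 18 for DBDmut peaks that were shared. The median delIDR1-only SMARCA4 peak was 158 bp wide with 7 fragments, against 204.5 bp and 12. For H3K27ac the construct-only medians were 13 fragments in delIDR1 and 18 in DBDmut, against 29 and 36 at shared peaks. With so few fragments behind a delIDR1-only peak, its absence from the other list is weak evidence of a difference at this depth.

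Where peaks were shared, their ranks in the 2 mutants rose and fell together. Matching each peak to its best overlapping peak gave 3990 SMARCA4, 6175 SMARCC1 and 21922 H3K27ac pairs, with summits a median of 34, 34 and 48 bp apart. Spearman's rho of the ranks was 0.59, 0.63 and 0.75 across these pairs. All pairs of an antibody come from the same 2 libraries and are not independent replicates. Among pairs kept in both lists, extreme changes of rank were few. For SMARCA4, 27 pairs were in the strongest 20% of delIDR1 and the weakest 20% of DBDmut, and 10 the other way round. For SMARCC1 these counts were 34 and 16, and for H3K27ac 31 and 23. Peaks without a kept partner are not among these pairs. In the strongest 20% of the SMARCA4 lists, 83 peaks of delIDR1 and 119 of DBDmut had no such partner.

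**Figure D3:**
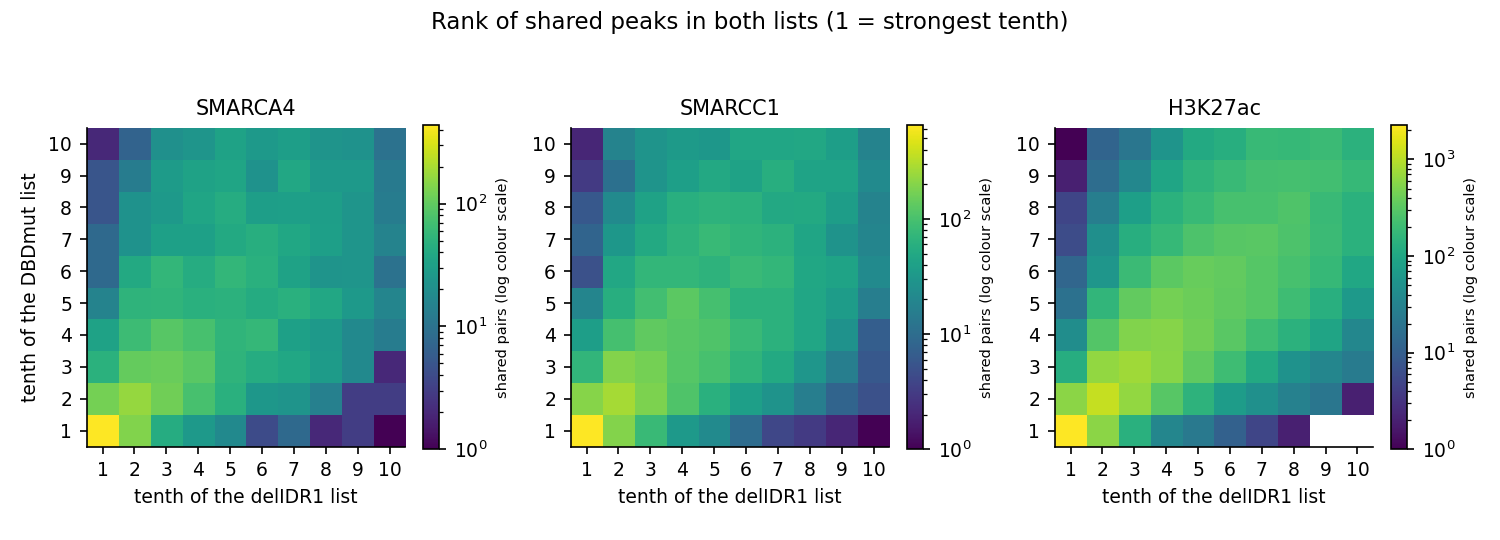
Shared pairs by rank in the delIDR1 list (horizontal axis) and in the DBDmut list (vertical axis), each list being divided into 10 equal steps with 1 the strongest, with colour giving the number of pairs on a log scale. Pairs gather along the diagonal, most densely in the strongest step of both lists, and the corners where a peak is strong in a single list hold the fewest.

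Part of the delIDR1-only class had a weaker DBDmut peak below the length kept. Of the 2973 delIDR1-only SMARCA4 peaks, 980 (33.0%) met a DBDmut peak that ranked too low to be kept, and 1277 SMARCC1 (32.1%) and 1570 H3K27ac peaks (18.6%) did. This left 1993 SMARCA4 (28.4% of the delIDR1 list), 2705 SMARCC1 (26.3%) and 6883 H3K27ac peaks (22.2%) with no DBDmut peak at any rank. With both lists instead kept down to the same -log10 p, 3536 delIDR1 and 7030 DBDmut SMARCA4 peaks remained. Of these, 368 in delIDR1 (10.4%) and 3024 in DBDmut (43.0%) met no peak of the other construct's full list. For SMARCC1, 462 of 5222 delIDR1 peaks (8.85%) and 4095 of 10285 DBDmut peaks (39.8%) met none. For H3K27ac, 3775 of 25326 (14.9%) and 8524 of 30991 (27.5%) met none. At a common threshold, then, peaks found in DBDmut and missed in delIDR1 outnumbered the reverse for all 3 antibodies. The DBDmut libraries of SMARCC1 and H3K27ac were the deeper ones and that of SMARCA4 was not. The part of depth, and of the share of fragments that fell in peaks, was not tested.

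Each class was then looked up in the full lists of WT and Empty, which played no part in choosing the members. Shared peaks were mostly found in both. Of the shared delIDR1 peaks, WT had 83.3% for SMARCA4, 92.8% for SMARCC1 and 92.9% for H3K27ac, and at least 1 Empty replicate had 75.1%, 84.5% and 78.3%. Shared peaks with neither a WT nor an Empty peak made up 5.05%, 1.24% and 2.61%. The peaks that the mutants had in common were thus largely found both with wild-type ARID1A and with the empty vector.

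In lists of equal length, DBDmut-only peaks were found in WT more often than delIDR1-only peaks. For SMARCA4, WT had 1539 of the 3011 DBDmut-only peaks (51.1%, 49.3 to 52.9) and 1064 of the 2973 delIDR1-only peaks (35.8%, 34.1 to 37.5). The difference was 15.3 percentage points (Newcombe 95% interval 12.8 to 17.8). For SMARCC1 it was 20.01 points (17.9 to 22.1), from 67.8% and 47.8%, and for H3K27ac 15.5 points (14.0 to 16.9), from 64.5% and 49.0%. At the same lowest -log10 p the SMARCA4 difference was 2.08 points, with an interval of -3.32 to 7.45 that includes 0. It was 9.32 points (4.69 to 14.1) for SMARCC1 and 8.04 (6.16 to 9.92) for H3K27ac. With H3K27ac lists shortened by fold enrichment the difference was -0.925.

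The same classes differed in Empty too. At least 1 Empty replicate had 46.2% of the DBDmut-only and 29.0% of the delIDR1-only SMARCA4 peaks, a difference of 17.2 points (14.8 to 19.6). For SMARCC1 the shares were 53.5% and 44.5% (8.98 points, 6.80 to 11.1) and for H3K27ac 54.3% and 43.7% (10.6 points, 9.12 to 12.1, but -7.92 with lists shortened by fold enrichment). Without Empty replicate 2 the SMARCA4 difference was 11.5 points and without replicate 1 15.2. The direction for SMARCC1 depended on the peaks kept: with lists of 50% of the length the difference was -5.56 points, and at the same lowest -log10 p it was -5.68. CBR and DDX4 had DBDmut-only peaks more often as well, by 14.6 and 18.3 points for SMARCA4, 12.4 and 13.2 for SMARCC1, and 3.70 and 10.99 for H3K27ac. In the equal-length lists the higher share was thus seen in all 5 libraries looked up, not in WT alone.

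**Figure D4:**
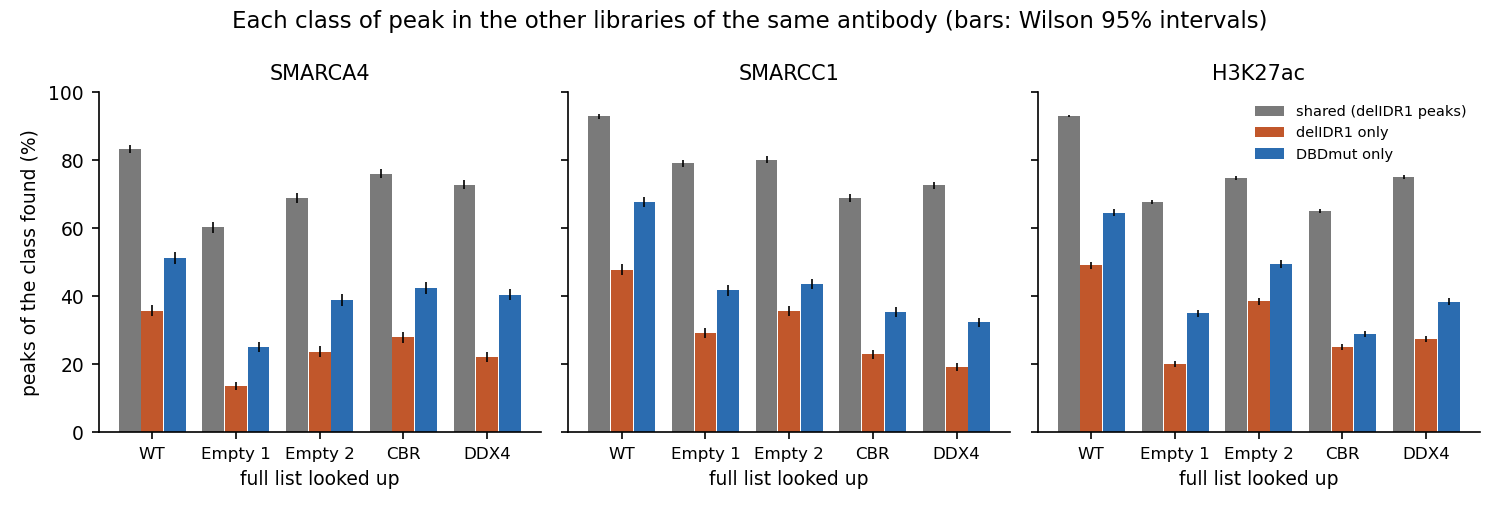
Share of the peaks of each class (vertical axis, percent) that met a peak in the full WT, Empty replicate 1, Empty replicate 2, CBR and DDX4 lists of the same antibody, with Wilson 95% intervals as black lines. Shared peaks are highest, DBDmut-only peaks come next and delIDR1-only peaks are lowest in every library shown.

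Comparing peaks of like rank kept the order in WT at both ends of the lists. In the strongest 20% of each list, WT had 94 of 119 DBDmut-only SMARCA4 peaks (79.0%) and 58 of 83 delIDR1-only peaks (69.9%). For SMARCC1 it had 107 of 115 (93.0%) and 60 of 87 (69.0%), and for H3K27ac 52 of 54 (96.3%) and 74 of 83 (89.2%). In the weakest 20% the SMARCA4 shares were 40.3% and 21.3%, those of SMARCC1 60.3% and 33.3%, and those of H3K27ac 52.3% and 36.0%. In Empty the order was not kept for SMARCC1 in 3 of the 5 steps. From the strongest step down, Empty had 72.2%, 59.1% and 59.9% of DBDmut-only SMARCC1 peaks and 73.6%, 61.5% and 60.6% of delIDR1-only ones. For H3K27ac it was not kept in the strongest step, at 44.4% and 44.6%.

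Every class held peaks that WT had and neither Empty replicate did. They made up 19.8% of shared, 22.2% of delIDR1-only and 26.1% of DBDmut-only SMARCA4 peaks. For SMARCC1 the shares were 14.3%, 21.2% and 29.8%, and for H3K27ac 19.1%, 24.5% and 26.7%. At the same lowest -log10 p, DBDmut-only was still above delIDR1-only for SMARCC1 (29.9%, 28.5 to 31.3, against 21.9%, 18.3 to 25.9). It was below for SMARCA4 (26.0%, 24.5 to 27.6, against 29.9%, 25.4 to 34.8). The same held for H3K27ac (26.7%, 25.8 to 27.7, against 28.8%, 27.3 to 30.2). Both pairs of intervals overlap. Peaks with no counterpart in WT or Empty were more common in delIDR1 in the equal-length lists: 1453 of its SMARCA4-only peaks (48.9%) against 836 for DBDmut (27.8%), 34.3% against 16.7% for SMARCC1, and 31.8% against 19.0% for H3K27ac. At the same lowest -log10 p these gaps narrowed. For SMARCA4 the shares were then 35.1% (30.4 to 40.1) in delIDR1 and 27.8% (26.3 to 29.5) in DBDmut, and for H3K27ac 25.6% (24.2 to 26.98) and 18.96% (18.1 to 19.8). For SMARCC1 they were 19.0% (15.7 to 22.9) and 16.7% (15.6 to 17.9), with overlapping intervals.

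The 2 BAF subunits were next used to check each other, because their libraries are separate. Of the DBDmut-only SMARCA4 peaks, 62.5% overlapped a SMARCC1 peak of DBDmut and 43.4% one of delIDR1, in lists of equal length. Of the delIDR1-only SMARCA4 peaks, 37.6% overlapped a SMARCC1 peak of delIDR1 and 33.3% one of DBDmut. At shared SMARCA4 peaks of delIDR1 the shares were 84.4% in delIDR1 and 92.3% in DBDmut. A SMARCA4 peak in a single mutant was therefore often accompanied by SMARCC1 in the other mutant. In 27.8% of DBDmut-only SMARCA4 peaks SMARCC1 was in DBDmut and not in delIDR1, and in 15.8% of delIDR1-only peaks it was in delIDR1 and not in DBDmut.

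Sites with both subunits gave a stricter comparison. A BAF site was a SMARCA4 peak that overlapped a SMARCC1 peak of the same construct, which does not show that ARID1A was part of the complex there. There were 4527 such sites in delIDR1 and 5579 in DBDmut. Of the delIDR1 sites, 3268 (72.2%) had both subunits in DBDmut, 788 (17.4%) had 1 of them and 471 (10.4%) had neither. Of the DBDmut sites, 3259 (58.4%) had both in delIDR1, 1482 (26.6%) had 1 and 838 (15.0%) had neither. In DBDmut's full lists, 184 delIDR1 sites (4.06%) had neither subunit. At the common length of 5453 SMARCA4 peaks, 9.08% of delIDR1 sites (8.23 to 10.01) had neither subunit in DBDmut and 13.2% of DBDmut sites (12.2 to 14.2) had neither in delIDR1. Between the Empty replicates these shares were 5.50% (4.83 to 6.26) and 8.51% (7.73 to 9.35). Both shares between the mutants were thus above both between the Empty replicates, but the intervals of 9.08% and 8.51% overlap. The shares with both subunits in the other library were alike. They were 70.2% and 60.4% between the mutants and 70.7% and 59.5% between the Empty replicates.

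WT had both subunits at 415 of the 838 DBDmut sites that delIDR1 lacked (49.5%, 46.1 to 52.9) and at 214 of the 471 delIDR1 sites that DBDmut lacked (45.4%, 41.0 to 49.95). Those intervals overlap. In 56.8% and 52.0% of these sites an Empty replicate had a peak of either subunit. Where it had none, WT had both subunits at 233 of 362 DBDmut sites (64.4%, 59.3 to 69.1) and at 119 of 226 delIDR1 sites (52.7%, 46.2 to 59.1). CBR had both at 26.6% of the DBDmut sites (23.7 to 29.7) and 23.4% of the delIDR1 sites (19.8 to 27.4), which overlap. DDX4 had both at 20.4% (17.8 to 23.3) and 9.34% (7.03 to 12.3).

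H3K27ac was found in the mutant without BAF peaks at more than 50% of the sites that the other mutant alone had in lists of equal length. Of the 838 DBDmut sites with neither subunit in delIDR1, 689 (82.2%) had H3K27ac in DBDmut, 604 (72.1%, 68.9 to 75.0) had it in delIDR1 and 578 had it in both. Of the 471 delIDR1 sites with neither subunit in DBDmut, 324 (68.8%) had H3K27ac in delIDR1, 273 (58.0%, 53.5 to 62.3) had it in DBDmut and 251 had it in both. At the 184 delIDR1 sites with neither subunit in the full DBDmut lists, the shortened DBDmut H3K27ac list had the mark at 73 (39.7%, 32.9 to 46.9). The full DBDmut H3K27ac list had it at 82 (44.6%, 37.6 to 51.8). In lists of equal length, H3K27ac in the construct with the BAF site and not in the other was found at 111 of the 838 DBDmut sites (13.2%). It was found so at 73 of the 471 delIDR1 sites (15.5%). At sites with both subunits in both mutants these shares were 2.88% and 1.50%. WT and the Empty replicates were looked up in their full lists, of 49682, 35429 and 90766 H3K27ac peaks, not in lists of equal length. WT had H3K27ac at 85.0% of the DBDmut and 69.6% of the delIDR1 sites. The Empty replicates had it at 55.0% and 61.1% of the former and 39.9% and 52.7% of the latter. Between the Empty replicates, sites of 1 replicate with neither subunit in the other had H3K27ac in that other in 67.1% and 78.0% of cases. These are values at the common length of 5453 SMARCA4 peaks. At that length the mutant shares were 73.4% for DBDmut sites and 59.6% for delIDR1 sites. H3K27ac in the library with the BAF site and not in the other was then found at 12.9% of DBDmut and 15.7% of delIDR1 sites. Between the Empty replicates it was found so at 5.09% of the sites of replicate 1 and 18.1% of those of replicate 2.

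**Figure D5:**
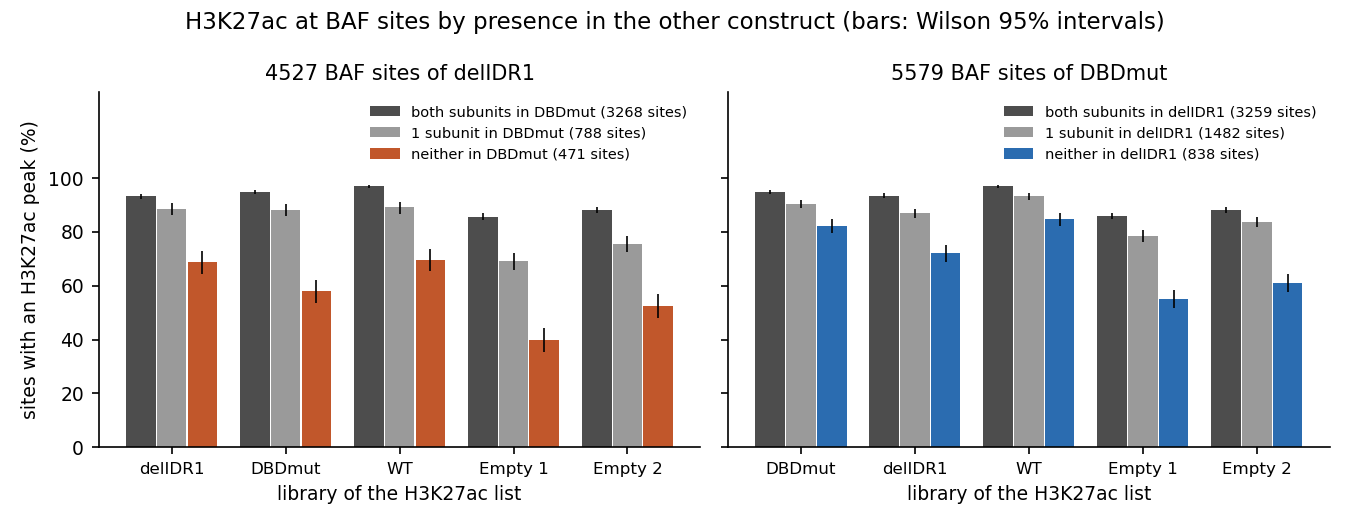
Share of BAF sites with an H3K27ac peak (vertical axis, percent) in delIDR1, DBDmut, WT and the Empty replicates, for sites of delIDR1 (left) and of DBDmut (right), grouped by how many subunits the other construct had. The H3K27ac lists of delIDR1 and DBDmut were of equal length, and those of WT and Empty were full and longer. Black lines are Wilson 95% intervals. The coloured bars, sites with neither subunit in the other construct, are lower than the grey bars in every library shown, at 68.8% in delIDR1 and 82.2% in DBDmut even in the construct that had the BAF peaks.

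H3K27ac ranked lower where the BAF peaks were missing, in H3K27ac lists of equal length. At 251 delIDR1 sites without BAF peaks in DBDmut, H3K27ac was present in both mutants, with a median rank of 6570 in delIDR1 and 11709 in DBDmut. The rank was higher in delIDR1 at 183 of them (72.9%, 67.1 to 78.0). At 578 such sites of DBDmut the medians were 5748.5 in DBDmut and 8157.5 in delIDR1, with the higher rank in DBDmut at 385 (66.6%, 62.7 to 70.3). At sites with both subunits in both mutants neither side led: 48.7% of delIDR1 sites ranked higher in delIDR1 and 51.5% of DBDmut sites higher in DBDmut. Acetylation thus more often ranked higher in the mutant that had the BAF peaks. With lists shortened by fold enrichment the share of the DBDmut sites was 54.8%.

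This gap was wider at sites that Empty cells lacked. Among sites with no BAF peak in either Empty replicate, H3K27ac ranked higher in the construct with the BAF site at 108 of 130 for delIDR1 (83.1%, 75.7 to 88.6) and at 187 of 239 for DBDmut (78.2%, 72.6 to 83.0). Median ranks were 5844 against 12550, and 5596 against 11291. Where an Empty replicate had a BAF peak, the shares were 62.0% (53.1 to 70.1) and 58.4% (53.1 to 63.5). The Empty replicates, handled the same way, gave 54.6% and 84.6% at sites with neither subunit in the other, but 35.8% and 64.1% at sites with both. The Empty replicates thus also ranked H3K27ac higher where they had the BAF peaks than at sites with both subunits in both. The gap was like that over all such mutant sites, at 72.9% and 66.6% against 48.7% and 51.5%. Every BAF site of an Empty replicate has an Empty peak by definition. The replicates therefore give no scale for the sites that Empty lacked.

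Most construct-only acetylation lay away from BAF peaks. In BAF lists of equal length, 7676 of the 8524 DBDmut-only H3K27ac peaks (90.1%) met no SMARCA4 or SMARCC1 peak of DBDmut. Of the 8453 delIDR1-only peaks, 7832 (92.7%) met none of delIDR1. Among shared H3K27ac peaks these shares were 61.7% and 62.7%. The 848 DBDmut-only peaks with a BAF peak of that construct were in WT in 79.2% of cases (76.4 to 81.8), against 62.9% (61.8 to 64.0) of those without. For delIDR1 the shares were 68.9% (65.2 to 72.4) of 621 peaks and 47.5% (46.4 to 48.6). Peaks with BAF were also the stronger ones, with a median rank of 17961 against 24164.5 in DBDmut and 18864 against 24419 in delIDR1. The full DBDmut BAF lists, which are longer, met more of its H3K27ac peaks. SMARCC1 was then at 17.2% of DBDmut-only and 50.1% of shared peaks, and SMARCA4 at 13.3% and 39.8%.

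Of the 5 strongest BAF sites of each mutant without a counterpart in the other full lists, 3 of DBDmut and 5 of delIDR1 had both subunits in WT and neither in Empty. The strongest sites were not typical. Over all such sites, 233 of 838 for DBDmut (27.8%, 24.9 to 30.9) and 46 of 184 for delIDR1 (25.0%, 19.3 to 31.7) did, with overlapping intervals. For DBDmut the first, by summed rank in the SMARCA4 and SMARCC1 lists, lay on chromosome 5 from 115194816 to 115195359 (hg19). It ranked 317 for SMARCA4, with a fold enrichment of 16.0 over the local background, and 490 for SMARCC1, with a fold of 14.3. WT had both subunits there, at ranks 325 and 632, and neither Empty replicate, CBR nor DDX4 had any of the 3 antibodies. The nearest delIDR1 SMARCA4 peak was 314 kb away. H3K27ac was nonetheless present in delIDR1, at rank 10561 with a fold of 6.94, against rank 1368 with a fold of 9.85 in DBDmut.

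A DBDmut site on chromosome 11 from 112163803 to 112164025 had the same pattern. Its SMARCA4 rank was 1337 and its SMARCC1 rank 520, WT had both subunits, and Empty, CBR and DDX4 had no peak of the 3 antibodies. H3K27ac ranked 7560 in DBDmut and 13558 in delIDR1. The site on chromosome 8 from 126231541 to 126231742, at ranks 415 and 1043, also lacked both subunits in Empty, and its H3K27ac ranked 336 in DBDmut and 4757 in delIDR1. The remaining pair of the 5 differed. On chromosome 10 from 5061161 to 5061328 both Empty replicates had both subunits, and on chromosome 9 from 139246500 to 139246947 both had SMARCA4 while WT had SMARCC1 alone. At these sites H3K27ac ranked 458 and 3197 in DBDmut, and 621 and 1485 in delIDR1.

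The 5 strongest delIDR1 sites without BAF peaks in DBDmut were all WT sites without a BAF peak in Empty. On chromosome 20 from 45200870 to 45201127, SMARCA4 ranked 484 with a fold of 11.9 and 25 fragments over the summit, and SMARCC1 ranked 804 with a fold of 12.7. WT had both subunits and H3K27ac there, while Empty, CBR and DDX4 had none of the 3 antibodies. H3K27ac ranked 2646 in delIDR1 and 33174 in the full DBDmut list, beyond the 30991 peaks kept. On chromosome 19 from 8219817 to 8219968, SMARCA4 ranked 494 and SMARCC1 1033, and H3K27ac ranked 2434 in delIDR1 and 23890 in DBDmut.

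The other delIDR1 sites lay on chromosomes 10, 11 and 6. At 91134093 to 91134374 of chromosome 10, SMARCC1 stood at rank 589 with a fold of 13.3, and H3K27ac stood at rank 775 in delIDR1 and 12605 in DBDmut. On chromosome 11 from 46688578 to 46688699 the H3K27ac ranks were 4100 and 21266. On chromosome 6 from 44013440 to 44013595 DBDmut had no H3K27ac peak. In the WT list of 12720 SMARCA4 peaks, the chromosome 20, 19 and 6 sites ranked 5783, 4565 and 586. A DBDmut SMARCA4 peak lay 1.33 kb from the chromosome 6 site and 4.58 kb from the chromosome 10 site. A delIDR1 SMARCA4 peak lay 4.29 kb from the DBDmut site on chromosome 10. Single sites of WT, not all of them high in its lists, were therefore missing both subunits in DBDmut, and others in delIDR1. With 1 library each, a missing site and a site missed in that library cannot be told apart.

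The strongest H3K27ac peaks of a single mutant, with none in the other full list, began at rank 1966 in DBDmut and 1528 in delIDR1. The DBDmut peak lay on chromosome 5 between 108220450 and 108221096, and its fold enrichment was 16.5. DBDmut had both subunits there, WT had SMARCC1 and H3K27ac, and Empty had none of the 3 antibodies. The peak on chromosome 2 from 43626769 to 43627409, at rank 2676, had both subunits in DBDmut and WT and none in delIDR1 or Empty. Of the 5 DBDmut-only peaks, 4 had both subunits in the full DBDmut lists, which are longer than those of delIDR1. At the peaks of rank 1966 and 2232 the DBDmut SMARCA4 peak ranked 9637 and 9467, beyond the 7011 kept. The first delIDR1-only peak lay on chromosome 8 from 144905323 to 144905938, and had no BAF peak in any library. Of the 5 delIDR1-only peaks, 1 had BAF peaks in delIDR1, on chromosome 5 from 148441968 to 148443042. The full DBDmut lists had both subunits there too, without the mark, at ranks 13097 and 12452, beyond the lengths kept.

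The strongest SMARCA4 peaks of a single mutant, with none in the other full list, had no SMARCC1 peak in either mutant. They lay on chromosome 19 between 59118875 and 59118979 for DBDmut (rank 58) and on chromosome 2 between 92315344 and 92315457 for delIDR1 (rank 245). A SMARCA4 peak of the other mutant lay 0.89 and 1.36 kb from them. At other strong single-subunit differences the other subunit was present in both mutants. DBDmut-only SMARCA4 peaks on chromosome 1 from 150602069 to 150602288 (rank 309, fold 16.2) and on chromosome 10 from 89622989 to 89623254 (rank 370, fold 16.3) had SMARCC1 and H3K27ac in delIDR1. The delIDR1-only SMARCA4 peak on chromosome 1 from 161503188 to 161503664 (rank 293, fold 12.0) had both in DBDmut, and a DBDmut SMARCA4 peak lay 0.134 kb away. The top DBDmut-only SMARCC1 peak, on chromosome 17 from 27724604 to 27725118 at rank 166 with a fold of 21.1, had SMARCC1 in both Empty replicates, WT, CBR and DDX4 and no SMARCA4 peak in either mutant. The top delIDR1-only SMARCC1 peak, on chromosome 14 from 32954035 to 32954324 at rank 51, also had no SMARCA4 in either mutant.

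The highest shared peaks of both subunits were the same 3 sites, on chromosome 13 from 110076479, on chromosome 5 from 10028 and on chromosome 1 near 121484062. All 7 of the SMARCA4 lists and all 7 of the SMARCC1 lists had them. Regions prone to artefacts were not removed.

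Construct-only peaks of delIDR1 gathered at 2 places beside centromeres. When nearby SMARCA4 peaks of a class were joined, 21 regions held at least 3 delIDR1-only peaks and 7 held at least 3 DBDmut-only peaks. The largest spanned 52.4 kb on chromosome 10 from 42356961 to 42409364 and held 12 delIDR1-only peaks, of which WT had 8 and an Empty replicate had 10. The next, on chromosome 4 from 49093861 to 49121777, held 9, of which WT had 6 and an Empty replicate 7. SMARCC1 had 11 delIDR1-only peaks in an overlapping region of chromosome 10 and 13 in one of chromosome 4. Such regions are rich in repeats. All 21 regions together held 3.53% of the delIDR1-only SMARCA4 peaks.

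For H3K27ac such regions were more numerous in DBDmut, with 191 holding 659 of its construct-only peaks (7.73%), against 129 holding 431 (5.10%) in delIDR1. A region of 31.4 kb on chromosome 7 from 111139157 to 111170551 held 7 DBDmut-only H3K27ac peaks and no delIDR1 peak of that mark. WT had 7 H3K27ac peaks in it, Empty replicate 1 had 0 and Empty replicate 2 had 3. DBDmut had 3 SMARCA4 and 2 SMARCC1 peaks there, and delIDR1 had 0 and 2. Another region with 7 such peaks, on chromosome 10 from 17025790 to 17051766, was acetylated in both mutants, WT and Empty, with 15 H3K27ac peaks in DBDmut, 6 in delIDR1, 11 in WT, and 14 and 12 in the Empty replicates. For delIDR1, regions on chromosome 15 from 35601124 to 35622334 and on chromosome 16 from 69873258 to 69896040 held 6 delIDR1-only peaks each, 3 and 4 of them in WT. On chromosome 15 the Empty replicates had 9 and 7 H3K27ac peaks. On chromosome 16 DBDmut had 2 H3K27ac peaks, WT had 5, and the Empty replicates had 0 and 1.

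The 2 classes differed most on chromosome 19 for SMARCA4, and on chromosome 21 for SMARCC1 and, in the opposite direction, for H3K27ac. On chromosome 19, 190 of 460 DBDmut SMARCA4 peaks were DBDmut-only (41.3%) and 113 of 384 delIDR1 peaks were delIDR1-only (29.4%). For SMARCC1 on the same chromosome the shares were 36.3% and 31.6%, and for H3K27ac 20.3% and 22.3%. On chromosome 4 the SMARCA4 shares were 41.1% for DBDmut and 50.5% for delIDR1, while those of SMARCC1 were 38.1% and 39.3%. Chromosome 21 had few peaks. Of its SMARCC1 peaks, 37 of 80 in DBDmut were DBDmut-only (46.3%) and 24 of 67 in delIDR1 were delIDR1-only (35.8%). For H3K27ac these were 45 of 189 (23.8%) and 70 of 213 (32.9%). For H3K27ac, chromosome 18 had 32.7% DBDmut-only and 24.2% delIDR1-only peaks.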

How the data were processed

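Peak lists on chromosomes 1 to 22 were compared. Per the labels' protocols a commercial CUT&Tag protocol was used, and the submitters' processing notes name the build hg19 and the tool bcl2fastq. The sources used here do not give the aligner, the peak caller, the treatment of duplicates or the control. The authors deposited 1 list per library with 10 columns, among them a score (not used), the fold enrichment as a ratio to local background, the -log10 p-value, the -log10 q-value and the summit offset. The lowest -log10 q of each list is just above 2. Ranks hold within a list.

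Lists were ranked and shortened by -log10 p. Whole fragment pileups and backgrounds were solved from the deposited fold and p-value, read as a Poisson tail, and a solution was found for 99.8% of peaks or more in each list (tolerance 0.001). Depth is the lowest background divided by the length of the shortest peak. Shares have Wilson 95% intervals and differences have Newcombe intervals. Both cover counting error alone, and neighbouring peaks and PCR copies are not independent. The labels do not say whether the Empty replicates were separate cultures.

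Members and lists were chosen with earlier results of these data known. Named sites followed a rule: per antibody the 5 highest construct-only peaks absent from the other full list and the 3 highest shared ones, the 5 highest BAF sites per direction absent from the other full lists, and per direction the H3K27ac region with most construct-only peaks. The SMARCA4 and SMARCC1 regions, the H3K27ac regions on chromosomes 7 and 16, and the chromosomes named were chosen after their values were seen. No genome or annotation of hg19 was used here, so sites carry no gene, sequence or motif. The HA library was not used. The scripts were tested on simulated data. Python 3.11.15, numpy 2.4.6, scipy 1.17.1, pandas 2.3.3 and matplotlib 3.10.9 were used.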

Additional observations from a re-analysis of the deposited data

How the results depend on the processing

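Of 115 values recomputed under alternatives, 43 kept within their error, 68 moved and 4 changed sign. DBDmut-only peaks were the more often found in WT or Empty in 62 of 66 share differences, with an interval above 0 in 58. The settings reuse the same peaks, so this count is not independent support. Taking delIDR1-only peaks against the full DBDmut list narrowed the delIDR1 class alone, from 2973 to 1993 peaks for SMARCA4. The sign changed for SMARCC1 in Empty with lists of 50% of the length (-5.56 points) and at the same lowest -log10 p (-5.68), and for H3K27ac with lists shortened by fold enrichment (-0.925 in WT and -7.92 in Empty). The cause was not tested.

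The share of delIDR1 peaks shared with DBDmut, for SMARCA4, SMARCC1 and H3K27ac in turn, was 71.6%, 73.7% and 77.8% with full-length lists. It was 61.1%, 66.1% and 75.9% with lists of 50% of the length, and 60.6%, 65.3% and 74.97% with a -log10 q of at least 5. It was 56.2%, 59.8% and 71.0% when an overlap had to cover 50% of the shorter peak, and 56.1%, 58.9% and 65.2% when summits had to lie within 250 bp. With lists shortened by fold enrichment it was 58.5% for SMARCC1 and 67.8% for H3K27ac.

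The difference in WT, in percentage points and in the same order, was 2.41, 12.9 and 8.28 with full-length lists, 6.42, 10.8 and 8.44 with lists of 50% of the length, and 9.60, 13.4 and 12.04 with the q minimum. At the same lowest -log10 p it was 2.08, 9.32 and 8.04, and with delIDR1-only peaks taken against the full DBDmut list 24.02, 31.4 and 19.3. It was 22.5 for SMARCC1 and 17.7 for H3K27ac with the 50% overlap, and 12.7 for SMARCA4 and 13.9 for H3K27ac with WT and Empty lists shortened too. For SMARCC1 it was 15.8 with lists shortened by fold enrichment.

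The difference in Empty was 4.87 for SMARCA4 and 3.18 for SMARCC1 with full-length lists, and 9.66 for SMARCA4 and 1.25 for H3K27ac with lists of 50% of the length. It was 13.5, 0.0526 and 7.36 with the q minimum and 23.9, 17.8 and 13.4 against the full DBDmut list. At the same lowest -log10 p it was 11.1 for SMARCA4 and 8.65 for H3K27ac. Lists shortened by fold enrichment gave 13.99 for SMARCA4 and 0.288 for SMARCC1. The 50% overlap gave 13.1 for H3K27ac, and shortened WT and Empty lists gave 12.03 for SMARCC1 and 15.8 for H3K27ac. Leaving out each Empty replicate in turn gave a SMARCA4 difference between 11.5 and 15.2, a SMARCC1 difference between 7.78 and 12.49, and an H3K27ac difference between 10.9 and 14.8.

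H3K27ac in DBDmut at delIDR1 BAF sites without DBDmut BAF peaks was found at 44.6% with full-length lists, 64.3% with lists of 50% of the length, 64.4% with the q minimum, 52.9% with summits within 250 bp and 50.4% with lists shortened by fold enrichment. In the opposite direction it was found at 65.6%, 67.5% and 65.6% under full-length lists, lists of 50% of the length and summits. The share that ranked higher in the construct with the BAF site was 81.6% for delIDR1 and 60.6% for DBDmut with full-length lists, and 54.8% for DBDmut with lists shortened by fold enrichment.

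The same lowest -log10 p, the full DBDmut list and the H3K27ac values at BAF sites, with their alternatives, were added after seeing the data. No paired analysis was possible because each construct had 1 library per antibody and only Empty carried replicate numbers. The planned gene and motif look-ups were not run. Without replicates of delIDR1 or DBDmut, the spread between libraries of a construct is unknown, and peaks of few fragments limit what an absence shows.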
